A study of Homo sapiens with 30 samples.

Results

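The genes described here encode the protein part of the splicing machinery outside the SR proteins: the heterogeneous nuclear ribonucleoproteins (hnRNPs), the proteins of the small nuclear ribonucleoprotein particles (snRNPs), the SF3A, SF3B and U2AF factors, the LUC7-like and PRPF proteins, and the numbered RBM proteins. They were taken by symbol as the protein-coding genes that start with HNRNP, SNRP, SF3A, SF3B, U2AF, LUC7L, PRPF or RBM and a digit, without RBM3. The rule found 99 of the 26801 genes in the table, 17648 of which are protein coding. No measured value entered the choice. Of the 99, 93 reached 1 FPKM (fragments mapped to a gene, scaled by its transcript length and the depth of the library) in at least 3 libraries and were tested together with 12086 genes in all. The other 6 are SNRPN, RBM44, HNRNPH2, HNRNPCL1, RBM46 and RBM11. SNRNP70, SNRNP200 and further splicing genes whose symbols do not match the rule are given at the end as a separate list.

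The cells were A549, an established human line of lung adenocarcinoma, and each of 10 groups has 3 libraries of polyadenylated RNA, 30 in all. The groups with KOA in their name are labelled RSRP1 knockout and those with WTA wild type. RSRP1 encodes a protein rich in arginine and serine. Each of 5 backgrounds, KOA, iR_KOA, iR_KOA_D3, iR_WTA and iR_WTA_D3, has an unexposed group (NE) and a group with a magnetic exposure labelled 2 H (EX). The labels do not explain iR or D3, so both stay names here, and a wild-type background without iR is not analysed here. Whether the knockout is a single clone, and whether the 3 libraries of a group came from separate cultures, is not given. The p-values therefore measure only how far these samples spread, and that spread may be technical. By its title, the series asks about a magnetic field, RSRP1 and secreted signals in lung cancer cells.

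Splicing removes introns in the spliceosome, which is built on each transcript from snRNPs. Every major snRNP except U6 holds a ring of Sm proteins around its RNA. U1 binds the 5′ splice site, helped by LUC7-like proteins, U2AF marks the 3′ splice site, and U2 with SF3A and SF3B holds the branch site. The U4/U6.U5 particle, home of several PRPF proteins, then joins and the complex is rearranged into its active form. HnRNPs and many RBM proteins coat the transcript and steer which sites are used, and several of them regulate their own transcripts through alternative exons.

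RSRP1 separated the genotypes without overlap, at 2.09 to 7.95 FPKM in the 18 knockout libraries and 37.4 to 63.4 FPKM in the 12 wild-type libraries. The table implied 34620432 to 38939336 reads per library, a ratio of 1.125. Epithelial and A549 genes were high in every library (KRT8 at 892 to 1395 FPKM and AKR1B10 at 830 to 1423 FPKM), although KRT19 and EPCAM lay at 0.0194 to 22.8 and 0.402 to 1.85 FPKM. The alveolar markers SFTPB, SFTPC and NKX2-1 stayed at or below 0.292 FPKM. Of the markers of other cell types, PTPRC (immune), PECAM1 and VWF (endothelial) and COL1A2, PDGFRB and DCN (fibroblast) stayed at or below 0.0411 FPKM. CD68 (immune list) was at 23.7 to 39.6 FPKM in every library, COL1A1 (fibroblast) at 0.443 to 3.71 and CDH5 (endothelial) at 0 to 1.29, and their part in the results was not tested. Transcripts of 13 mitochondrially encoded genes took 20.1 to 30.8% of all FPKM, and this share differed between groups. In RNA from whole cultures, fewer cells with a transcript and less of it per cell cannot be told apart.

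The 250 bases before the transcription start are printed for 6 genes around which the results turn. A first pair holds a heat shock element (RBM23 and HNRNPA2B1). A further pair showed a fall and a rise on exposure (HNRNPDL and PRPF38B). That fall and rise held in every background and setting. The others are the gene whose exposure response differed most often between backgrounds (RBM14) and the largest fall past the threshold under D3 (HNRNPL). The sequences are RefSeq's, build GRCh38.p14, 5′ to 3′ on the strand of the gene, at chr14:22919150-22919399 (minus), chr7:26200747-26200996 (minus), chr4:82430463-82430712 (minus), chr1:108692060-108692309 (plus), chr11:66616380-66616629 (plus) and chr19:38852348-38852597 (minus). Capitals mark matches on either strand to a heat shock element (3 alternating units GAA, TTC and GAA with 2 bases between neighbours), an E-box (CACGTG), an ETS core (CCGGAAG) or a CCAAT box (CCAAT).
RBM23: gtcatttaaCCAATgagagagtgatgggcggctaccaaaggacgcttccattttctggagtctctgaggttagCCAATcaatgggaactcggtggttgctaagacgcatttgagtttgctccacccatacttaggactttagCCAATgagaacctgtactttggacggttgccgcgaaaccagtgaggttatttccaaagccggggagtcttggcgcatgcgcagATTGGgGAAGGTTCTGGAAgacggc
HNRNPA2B1: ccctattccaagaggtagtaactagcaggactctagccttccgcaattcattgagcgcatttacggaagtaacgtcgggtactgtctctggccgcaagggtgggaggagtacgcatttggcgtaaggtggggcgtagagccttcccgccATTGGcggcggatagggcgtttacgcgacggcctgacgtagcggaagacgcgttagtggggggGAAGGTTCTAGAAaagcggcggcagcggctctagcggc
HNRNPDL: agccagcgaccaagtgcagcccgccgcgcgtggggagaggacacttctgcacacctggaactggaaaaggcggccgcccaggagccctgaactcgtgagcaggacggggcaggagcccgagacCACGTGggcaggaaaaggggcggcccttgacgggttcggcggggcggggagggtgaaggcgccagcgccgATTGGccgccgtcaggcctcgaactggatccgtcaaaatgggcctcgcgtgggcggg
PRPF38B: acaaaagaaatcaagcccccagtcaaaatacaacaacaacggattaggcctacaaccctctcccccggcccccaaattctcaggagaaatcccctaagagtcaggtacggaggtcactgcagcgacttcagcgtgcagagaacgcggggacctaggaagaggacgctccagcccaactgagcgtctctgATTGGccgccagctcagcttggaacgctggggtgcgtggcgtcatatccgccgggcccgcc
RBM14: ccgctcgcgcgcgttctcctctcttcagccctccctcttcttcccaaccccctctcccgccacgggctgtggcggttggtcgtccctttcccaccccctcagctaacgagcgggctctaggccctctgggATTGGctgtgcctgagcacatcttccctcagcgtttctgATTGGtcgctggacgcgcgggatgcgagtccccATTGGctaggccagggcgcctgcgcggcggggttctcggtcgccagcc
HNRNPL: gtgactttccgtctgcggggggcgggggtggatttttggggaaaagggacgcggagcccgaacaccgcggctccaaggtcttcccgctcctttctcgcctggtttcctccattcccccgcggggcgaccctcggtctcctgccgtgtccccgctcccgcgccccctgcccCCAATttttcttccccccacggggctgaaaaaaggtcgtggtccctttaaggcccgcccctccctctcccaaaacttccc
RBM23 and HNRNPA2B1 were the only 2 of the 82 tested splicing factors with a promoter entry that held the heat shock element (2.44%, against 0.486% of 9885 tested genes and 0.49% of all 35116 windows of 300 bases). It began 19 and 38 bases before the start, and in RBM23 it lay next to a CCAAT box. The CCAAT box was found in 46 of the 82 (56.1%, against 43.3% of tested genes), the ETS core in 28 (34.1% against 22.7%) and the E-box in 10 (12.2% against 12.8%). By class, ETS cores lay in the windows of SNRPB, SNRPC, SNRPD2, SNRPE, SNRPG, SNRPA1, SNRPB2 and 6 of the SF3A and SF3B genes. A match is a string of letters and not a measured binding site.

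The splicing factors spanned the range from among the most abundant transcripts to none. On the FPKM scale, which is per length, SNRPB of the Sm ring was highest with a mean of 312.6 over the 30 libraries. The hnRNP genes HNRNPK, HNRNPA1 and HNRNPA2B1 followed at means of 246.5, 245.2 and 244.5 FPKM, which lie within each other's ranges over libraries (217 to 288, 189 to 335 and 169.9 to 337). At the low end of the tested genes stood RBM48 at a mean of 1.51 FPKM, U2AF1 at 1.93, PRPF40B at 2.03 and HNRNPA1L2 at 2.32. RBM11, RBM46 and HNRNPCL1 were listed at 0 in 28, 28 and 29 of the 30 libraries, and SNRPN, the Sm gene typical of neurons, had a mean of 0.312 FPKM. HNRNPH2 shares its locus with the readthrough gene RPL36A-HNRNPH2, and its 0 to 5 reads per library may miss reads assigned elsewhere.

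U2AF1 encodes the U2AF subunit that reads the end of the intron, and its values were erratic within groups. In the unexposed iR_WTA libraries they were 11.8, 0.266 and 0.439 FPKM, and in the exposed iR_KOA_D3 libraries 8.90, 1.76 and 1.36. The gene has a near-identical copy that can take its reads, so its values are uncertain. Its single call (exposure in iR_KOA_D3, from 0.173 ± 0.060 to 4.01 ± 4.2 FPKM, SD, n = 3 each) was lost without iR_KOA_D3_EX replicate 1, without any 1 of the unexposed libraries, with no filter on low values and with limma-voom. Its partner U2AF2, which binds the polypyrimidine tract, had 104 ± 2.7 FPKM in unexposed iR_KOA and 75.5 ± 3.0 in unexposed iR_KOA_D3.

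Summed over the 99 genes, the splicing factors made up 1.19% of all FPKM in unexposed iR_WTA libraries and 0.769% in unexposed iR_KOA_D3 libraries, the highest and the lowest of the 10 groups. The other unexposed groups lay between, at 0.999% in iR_KOA, 0.975% in iR_WTA_D3 and 0.894% in KOA. The ranges of these 5 groups over libraries did not overlap, and the nearest were iR_KOA (0.989 to 1.01%) and iR_WTA_D3 (0.972 to 0.980%). Exposure moved the sum little. It went from 1.19 to 1.15% in iR_WTA, from 0.999 to 0.963% in iR_KOA and from 0.894 to 0.924% in KOA, without overlap of libraries. In iR_KOA_D3 it went from 0.769 to 0.798%, and in iR_WTA_D3 it stayed at 0.975%, both with overlap. The mitochondrially encoded share was 21.1% in unexposed iR_WTA, 22.9% in iR_WTA_D3, 24.6% in iR_KOA, 28.4% in KOA and 29.4% in iR_KOA_D3. Among these unexposed groups it was lower where the splicing factors summed higher, apart from the order of iR_WTA_D3 and iR_KOA. With exposure the mitochondrial share was 24.4% in KOA, 25.8% in iR_KOA, 28.1% in iR_KOA_D3, 20.9% in iR_WTA and 22.5% in iR_WTA_D3. Its part in the results below was not tested.

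**Figure D1:**
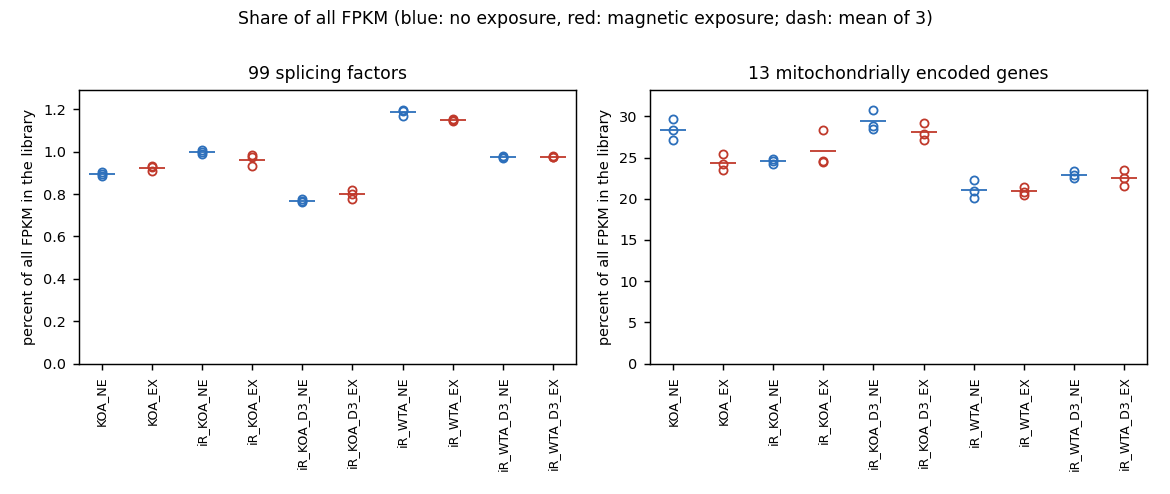
Percent of all FPKM in each of 30 libraries (circles; dash, mean of 3) held by the 99 splicing factors (left) and by 13 mitochondrially encoded genes (right), by group, with unexposed groups in blue and exposed groups in red. The splicing factors are highest in iR_WTA (1.19% unexposed) and lowest in iR_KOA_D3 (0.769% unexposed), where the mitochondrial share is 29.4%.

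The label D3 went with lower transcript levels across nearly every class of the splicing machinery, in wild type and knockout alike. In unexposed wild-type cells 54 of the 93 splicing factors were lower with D3 and 5 higher, where 26.3% of all tested genes were lower and 22.3% higher (48.7% in either direction). In unexposed knockout cells 65 were lower and 1 higher, where 34.5% of all genes were lower and 19.2% higher (53.7%). The lists overlapped: 52 genes were lower in both, which is 96.3% of the wild-type list and 80% of the knockout list. The comparisons share no library. The same overlap was not counted over all tested genes, so it is not known to be particular to splicing factors. The median log2 difference of the splicing factors was -0.18 in wild type, against -0.01 for all genes, and -0.24 in the knockout, against -0.06. With median-of-ratios scaling the knockout split became 46 lower and 7 higher, and with quantile normalization 47 lower and 5 higher. The mitochondrial share rose with D3 from 21.1 to 22.9% in wild type and from 24.6 to 29.4% in the knockout.

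HNRNPL (chromosome 19, 38836370 to 38852347, NCBI gene 3191) encodes a protein that binds CA-rich RNA and steers exon choice. Of the falls past the threshold among the 93, that of HNRNPL was the largest in both genotypes. In the knockout the erratic U2AF1 had a log2 difference of -1.25 and did not pass. The wild-type values of HNRNPL were 177, 169.9 and 176 FPKM without D3 and 94.8, 96.6 and 98.9 with it. The knockout values were 136, 141 and 153 FPKM without D3 and 80.4, 79.9 and 76.7 with it. No D3 library reached any library without D3. The log2 difference was -0.84 ± 0.04 (SE; adjusted p = 9.01e-15, limma) in wild type and -0.85 ± 0.04 (2.95e-15) in the knockout. Exposure left HNRNPL within 0.06 on the log2 scale in all 5 backgrounds, with none past the threshold, and KOA and iR_KOA differed by -0.10.

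Most snRNP proteins fell. In the Sm ring, the shared core of the snRNPs, 6 of 7 genes were lower in wild type and 7 of 7 in the knockout, and of the U1 and U2 proteins 3 of 4 and 4 of 4. SNRPF, a ring member, had 175 ± 5.6 FPKM without and 125 ± 1.9 with D3 in wild type (SD, n = 3 each), and 146 ± 6.8 and 82.6 ± 3.7 in the knockout. The log2 differences were -0.48 and -0.81. SNRPE (-0.59), SNRPD1 (-0.58), SNRPG (-0.57) and SNRPB (-0.55) fell by similar amounts in the knockout. SNRPA1 (chromosome 15, 101281510 to 101295248), the A′ protein of U2, went from 48.0 ± 1.0 to 29.1 ± 1.1 FPKM in wild type (-0.70 ± 0.06) and from 47.6 ± 2.4 to 27.4 ± 1.2 in the knockout (-0.78 ± 0.06), while SNRPB2 changed by -0.15 and -0.24. The SNRPB2 call in wild type was lost under both other scalings and without any 1 of its 6 libraries. On exposure SNRPA1 also fell in 4 backgrounds, by 0.31 in KOA, 0.25 in iR_KOA, 0.19 in iR_WTA and 0.32 in iR_WTA_D3, with -0.05 in iR_KOA_D3. The call in iR_WTA was lost with quantile normalization and without iR_WTA_EX replicate 2 or iR_WTA_NE replicate 1 or 2.

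Of 21 hnRNP genes, 16 were lower and 1 higher in wild type, and 15 lower and none higher in the knockout. HNRNPA2B1, an abundant packaging hnRNP, went from 309 ± 9.1 to 219 ± 0.86 FPKM in wild type and from 271 ± 13 to 176 ± 5.5 in the knockout. HNRNPAB went from 189 ± 8.1 to 133 ± 1.5 and from 159 ± 0.99 to 107 ± 1.2 FPKM. LUC7L3, a U1-associated protein, fell by 0.53 and 0.51 on the log2 scale, and U2AF2 by 0.29 and 0.46. Of the 9 SF3A and SF3B genes, 5 and 6 were lower, led by SF3A3 (-0.39 and -0.41). In the knockout the calls of SF3B4 (-0.18) and SF3B6 (-0.21) were lost under median-of-ratios scaling and under quantile normalization. RBM14 fell by 0.77 in wild type, from 17.6 ± 0.85 to 9.88 ± 0.60 FPKM, and by less in the knockout, from 7.84 ± 0.26 to 6.04 ± 0.15. The 5 genes higher in wild type were RBM43 (0.33), PRPF40B (0.25), HNRNPC (0.14), PRPF3 (0.14) and RBM33 (0.13), and RBM33 (0.10) was the one called in the knockout, where the call was lost without 5 of its 6 libraries, each left out in turn. That of PRPF3 was lost without iR_WTA_D3_NE replicate 2 or iR_WTA_NE replicate 2.

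**Figure D2:**
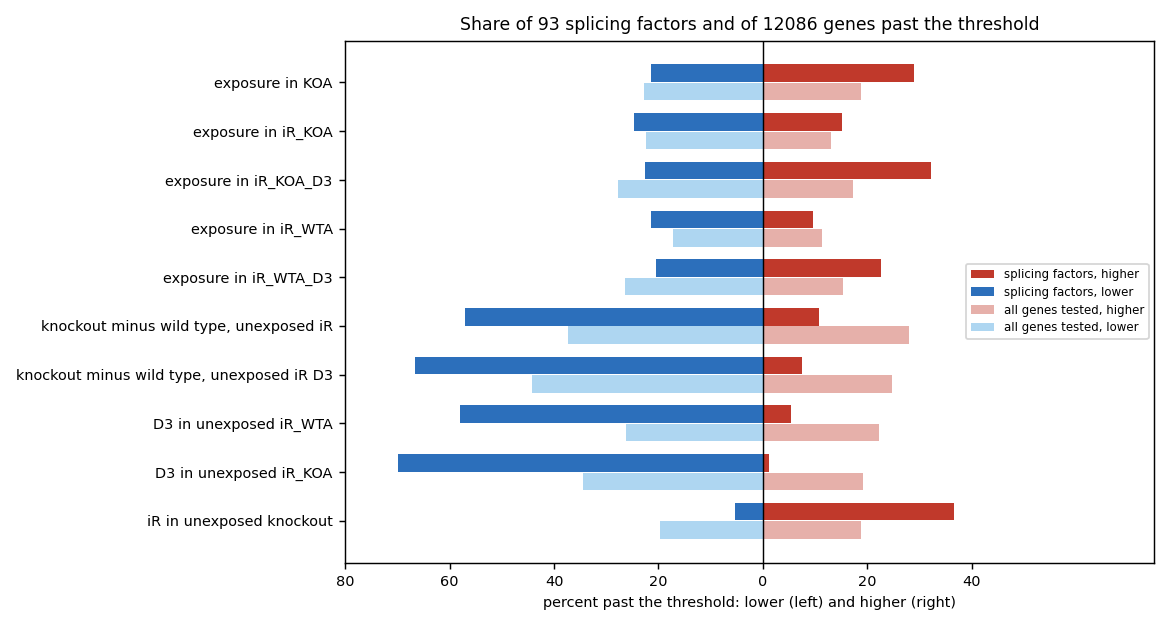
Percent of the 93 tested splicing factors (dark) and of all 12086 tested genes (pale) past an adjusted p of 0.05 in 10 comparisons, lower in blue to the left and higher in red to the right. Under D3 and in the knockout the dark bars reach further left than the pale ones (58.1% against 26.3% for D3 in wild type), and in the 5 exposure comparisons the sides are closer.

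Loss of RSRP1 also went with lower levels of most splicing factors. Without D3, 53 of 93 were lower in the unexposed knockout than in the wild type and 10 higher, where 37.4% of all genes were lower and 27.9% higher (65.3% in either direction). With D3, 62 were lower and 7 higher, where 44.3% of all genes were lower and 24.8% higher (69.1%). Of these, 52 were lower in both (98.1% and 83.9% of the lists) and 6 higher in both, again between comparisons that share no library. For all tested genes this overlap was likewise not counted. The median log2 difference was -0.20 without D3, against -0.06 for all genes, and -0.27 with D3, against -0.11. These comparisons share unexposed groups with those of D3, so the values stand side by side and are not independent. The mitochondrial share was 24.6% in the knockout and 21.1% in wild type, and 29.4 and 22.9% with D3.

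The U2 factors moved in opposite directions. SF3B3, a large scaffold subunit of SF3B, had 24.1, 26.3 and 26.2 FPKM in the unexposed iR_KOA libraries and 41.7, 40.0 and 42.3 in the iR_WTA libraries. The log2 difference was -0.67 ± 0.04 (adjusted p = 1.79e-14, limma), and -0.61 ± 0.04 with D3 (1.09e-13). SF3B1, the subunit that clasps the branch site, was higher in the knockout, at 47.0 ± 1.7 against 35.3 ± 1.4 FPKM (0.40 ± 0.04) and, with D3, at 44.8 ± 1.8 against 34.0 ± 0.68 (0.39 ± 0.04). For neither gene did the genotypes overlap in any library of the 10 groups. SF3B4 (-0.58 and -0.53) and SF3A3 (-0.53 and -0.55) were lower as well, and SF3B6 was the other SF3 gene higher in both (0.27 and 0.19, the latter lost without iR_KOA_D3_NE replicate 1). In all, 6 and 7 of the 9 genes were lower and 2 higher.

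In the hnRNP class 16 of 21 genes were lower without D3 and 18 with it. HNRNPA1, which acts on exon inclusion in many transcripts, had 223 ± 3.0 FPKM in iR_KOA and 328 ± 11 in iR_WTA, a log2 difference of -0.55 ± 0.04, and -0.57 with D3. HNRNPC, which binds uridine tracts, had differences of -0.32 without D3 and -0.52 with it. HNRNPA3 was the exception in both (0.27 and 0.13), and HNRNPH1 joined it with D3 (0.13), both calls with D3 being lost without iR_KOA_D3_NE replicate 3. Of the 13 PRPF genes, 5 were lower and 3 higher without D3. PRPF19, a ubiquitin ligase of the active spliceosome, had differences of -0.47 and -0.48, and PRPF8, the core of U5, of 0.26 and 0.27.

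The largest single difference, that of RBM14, was among the RBM genes, of which 18 of 33 were lower without D3 and 19 with it. RBM14 (chromosome 11, 66616630 to 66629934), a nuclear coactivator found in paraspeckles, had 7.71, 7.67 and 8.15 FPKM in unexposed iR_KOA and 18.3, 16.65 and 17.7 in unexposed iR_WTA. Its log2 difference was -1.07 ± 0.06 (adjusted p = 4.21e-14, limma) and, with D3, -0.63 ± 0.06. RBM20, known for splicing of titin in heart, was low throughout, with 2.10 ± 0.10 against 3.42 ± 0.20 FPKM and 1.74 ± 0.13 against 3.74 ± 0.13 with D3 (-0.79). RBM24, a muscle splicing regulator, went from 3.28 ± 0.17 in wild type to 2.33 ± 0.33 in the knockout, and from 3.81 ± 0.59 to 1.88 ± 0.19 with D3 (-0.73). RBM8A, part of the exon junction complex, had differences of -0.50 and -0.55. RBM47 (0.24 and 0.29) was higher in both. The RBM14 and RBM4 loci share the readthrough gene RBM14-RBM4, and the strand used in counting is not given, so reads could be divided among them. RBM4, named for that reason, had -0.43 and -0.37.

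Among knockout cells the label iR went with higher levels. In unexposed cells 34 of the 93 splicing factors were higher in iR_KOA than in KOA and 5 lower, where 18.7% of all genes were higher and 19.8% lower (38.5% in either direction). The median log2 difference was 0.10, against -0.00 for all genes. The mitochondrial share was 24.6% in iR_KOA and 28.4% in KOA. The iR_KOA group here is the same that served as the reference for D3 and as the knockout without D3 above.

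HNRNPC showed the largest rise, from 77.1, 80.4 and 77.8 FPKM in KOA to 113, 115 and 116.5 in iR_KOA (0.54 ± 0.03; adjusted p = 9.22e-13, limma). In wild type it had 144 ± 2.5 FPKM (unexposed iR_WTA). HNRNPA2B1 rose from 204 ± 3.5 to 271 ± 13 FPKM (0.41). In the Sm ring 6 of 7 genes rose, with SNRPE at 0.41, SNRPF at 0.34 and SNRPG at 0.30, and of the U1 and U2 proteins SNRPA, SNRPC and SNRPB2 rose by 0.28, 0.24 and 0.24. RBM24 rose by 0.48, from 1.39 ± 0.14 to 2.33 ± 0.33 FPKM. The 5 lower genes were LUC7L (-0.38), RBM10 (-0.23), RBM6 (-0.19), RBM5 (-0.16) and HNRNPL (-0.10). Of these RBM5, RBM6 and RBM10 are related proteins that regulate alternative exons. The HNRNPL call was lost without any 1 of KOA_NE replicates 2 and 3 and iR_KOA_NE replicates 1 and 2. It was also lost with no filter on low values, with only the compared groups in the fit and with the replicate block. The targeted RSRP1 differed as well, at 7.68 ± 0.25 FPKM in iR_KOA and 2.43 ± 0.29 in KOA.

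**Figure D3:**
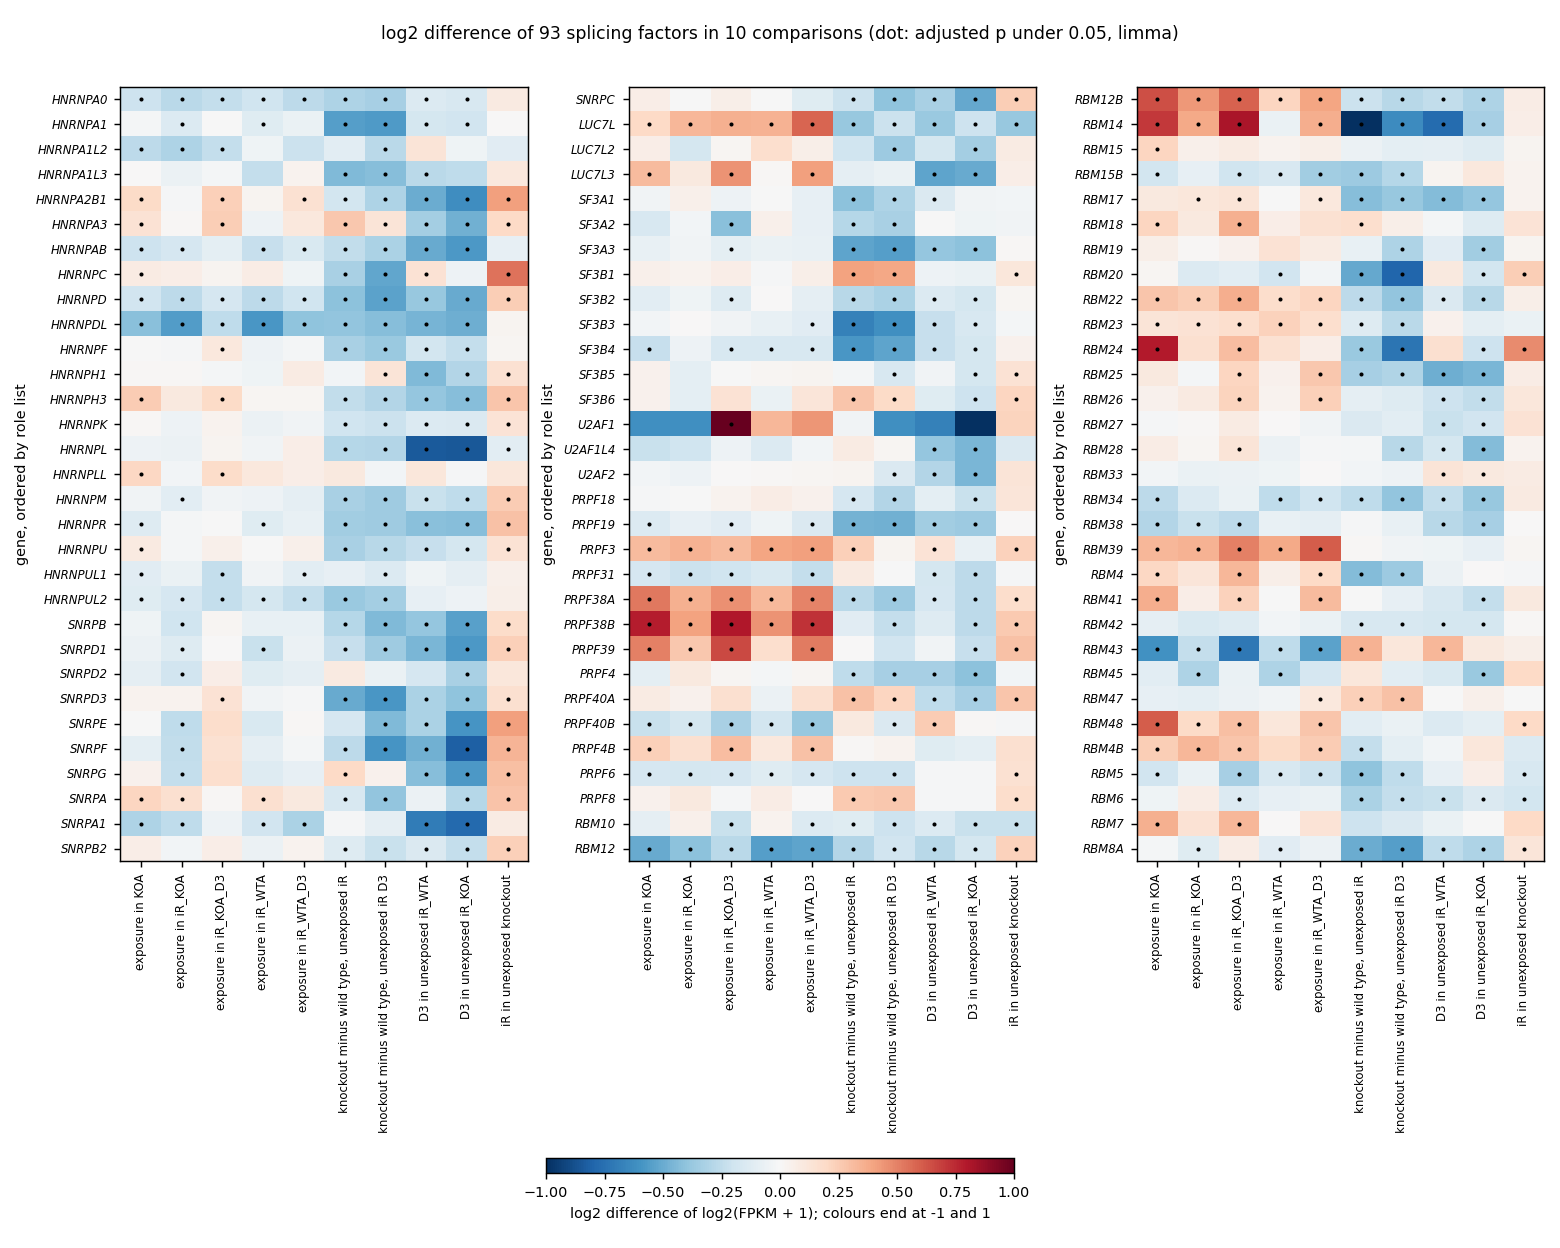
Log2 difference of log2(FPKM + 1) for the 93 tested splicing factors (rows, ordered by class) in 10 comparisons (columns), red for higher and blue for lower, with colours ending at -1 and 1 and dots for an adjusted p under 0.05. The genotype and D3 columns are mostly blue and the iR column mostly red, while the 5 exposure columns show the same few rows in red (PRPF38B, RBM39) and blue (HNRNPDL, RBM12).

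The magnetic exposure moved some splicing factors up and others down. Some passed in all 5 backgrounds, at shares near those of all tested genes (given below). Of the 93, 50.5, 39.8, 54.8, 31.2 and 43% passed in either direction in KOA, iR_KOA, iR_KOA_D3, iR_WTA and iR_WTA_D3. In KOA 27 rose and 20 fell, where 18.8% of all genes rose and 22.7% fell (41.5% in either direction). In iR_KOA 14 rose and 23 fell (13.1 and 22.3% of all genes, 35.3% in all), and in iR_KOA_D3 30 rose and 21 fell (17.3 and 27.8%, 45.1% in all). In iR_WTA 9 rose and 20 fell (11.4 and 17.2%, 28.6% in all), and in iR_WTA_D3 21 rose and 19 fell (15.3 and 26.5%, 41.8% in all). The median log2 differences were -0.00, -0.03, 0.03, -0.04 and 0.00 in this order, against -0.02, -0.05, -0.04, -0.04 and -0.05 for all genes. Scaling changed some of the splits: with median-of-ratios 19 rose and 16 fell in iR_KOA and 28 rose and 14 fell in iR_WTA_D3, and with quantile normalization the counts were 17 and 16 in iR_KOA and 10 and 14 in iR_WTA.

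Across the 5 backgrounds, which share no library, 8 splicing factors rose in all and 8 fell in all (8.6% each, against 5.98% and 7.87% of all tested genes). None was called in opposite directions, against 1.76% of all genes. The threshold was passed in no background by 21 (22.6%, against 29.9% of all genes). The 8 that rose were PRPF38B, PRPF38A, PRPF3, RBM39, LUC7L, RBM22, RBM23 and RBM12B. The 8 that fell were HNRNPDL, HNRNPA0, HNRNPD, HNRNPUL2, RBM12, RBM43, PRPF40B and PRPF6. For 8 of the 16 (PRPF38B, PRPF38A, PRPF3, RBM39, HNRNPDL, HNRNPA0, HNRNPD and RBM12) every one of the 5 calls held under each alternative and without each library in turn. The other 8 lost 1 or 2 of their 5 calls under some setting.

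PRPF38B (chromosome 1, 108692310 to 108702928, NCBI gene 55119) has a symbol that marks it as related to the B-complex factor PRPF38A. Among the 8 genes that rose in all 5 backgrounds, PRPF38B had the largest mean log2 difference over the backgrounds (0.63). Its unexposed KOA libraries had 7.07, 6.63 and 7.12 FPKM and the exposed ones 12.8, 12.8 and 12.3. In iR_WTA_D3 the values were 8.50, 8.19 and 8.52 against 13.9, 13.4 and 16.4 FPKM. Exposed and unexposed libraries did not overlap in any background. The log2 differences were 0.78, 0.40, 0.80, 0.45 and 0.72 (SE 0.06 each) in KOA, iR_KOA, iR_KOA_D3, iR_WTA and iR_WTA_D3. PRPF38A itself rose by 0.53, 0.35, 0.46, 0.32 and 0.49 in the same order, and PRPF3, a U4/U6 protein, by 0.31, 0.35, 0.31, 0.40 and 0.41.

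RBM39 (chromosome 20, 35701347 to 35742260), a splicing factor related to U2AF2, held nearly the same unexposed level in every background, 21.9 to 23.3 FPKM as group means. Its exposed group means were 29.2 in KOA, 30.0 in iR_KOA, 31.6 in iR_KOA_D3, 30.5 in iR_WTA and 34.7 in iR_WTA_D3. The lowest exposed library of all 15 had 28.0 FPKM and the highest unexposed one 24.0, so exposed and unexposed libraries did not overlap across genotypes and labels. RBM23, its close relative, whose promoter is printed above with a heat shock element, rose by 0.13 to 0.23. The RBM23 call in KOA was lost without any 1 of KOA_EX replicates 2 and 3 and KOA_NE replicates 1 and 2. Its call in iR_KOA was lost with only the compared groups in the fit and without iR_KOA_EX replicate 1 or iR_KOA_NE replicate 1 or 2. HNRNPA2B1, the other gene with that element, rose in KOA (0.19), iR_KOA_D3 (0.24) and iR_WTA_D3 (0.15), with values of -0.01 in iR_KOA and 0.02 in iR_WTA.

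LUC7L, a U1-associated protein, rose by 0.20 to 0.58 in the 5 backgrounds, the highest value in iR_WTA_D3 with 8.81 ± 0.22 FPKM unexposed and 13.7 ± 1.1 exposed. The LUC7L call in KOA was lost without any 1 of KOA_EX replicates 1 and 3 and KOA_NE replicates 1 and 2. Its relative LUC7L3 was called in KOA (0.32), iR_KOA_D3 (0.45) and iR_WTA_D3 (0.41), with values of 0.10 in iR_KOA and 0.01 in iR_WTA. RBM22, a factor of the catalytic core, rose by 0.18 to 0.36. RBM12B, another RNA-binding motif protein, rose by 0.22 to 0.65, for example from 2.90 ± 0.13 to 5.12 ± 0.57 FPKM in KOA.

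**Figure D4:**
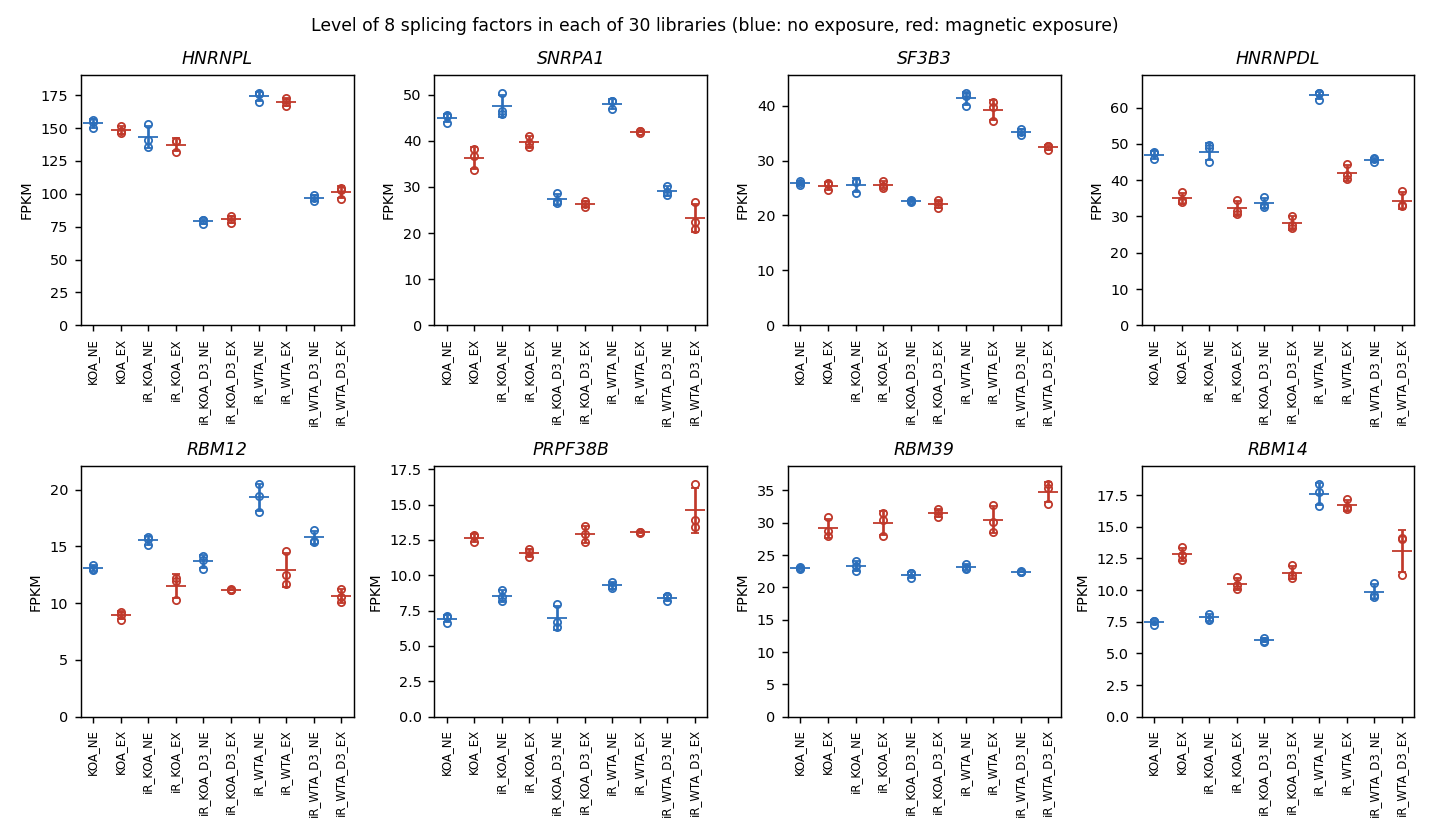
FPKM of 8 splicing factors in each of 30 libraries (circles), with mean and SD of the 3 libraries of a group, unexposed in blue and exposed in red. HNRNPL and SNRPA1 drop in the D3 groups, SF3B3 separates the genotypes, HNRNPDL and RBM12 are lower and PRPF38B and RBM39 higher in every exposed group, and RBM14 rises with exposure except in iR_WTA.

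HNRNPDL (chromosome 4, 82422564 to 82430462, NCBI gene 9987), a relative of the AU-rich binding protein HNRNPD, fell in every background. Unexposed iR_WTA libraries had 62.2, 63.9 and 64.0 FPKM and exposed ones 40.3, 41.4 and 44.5. Unexposed iR_KOA libraries had 48.9, 49.7 and 45.1 FPKM and exposed ones 30.7, 31.6 and 34.5. The groups did not overlap in any background, with log2 differences of -0.42 in KOA, -0.56 in iR_KOA, -0.25 in iR_KOA_D3, -0.58 in iR_WTA and -0.40 in iR_WTA_D3 (SE 0.05 each). HNRNPD fell by 0.17 to 0.26 and HNRNPA0 by 0.20 to 0.27. GENCODE release 29 lists 10 transcripts of HNRNPDL, 4 of them marked for nonsense-mediated decay, and the FPKM sums over all of them, so shifts between isoforms are not visible here. Over the tested hnRNP genes 65% have such a transcript, against 47.8% of the tested splicing factors and 44% of all tested protein-coding genes. The 20 hnRNP genes matched there also have more listed transcripts, a median of 11.5 against 8 in both other lists. Of the 8 genes lower in all 5 backgrounds 37.5% have such a transcript, and of the 8 higher in all 5, 25%. Whether such transcripts play a part in the falls was not tested.

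RBM12, which shares its locus with CPNE1, fell in every background: from 13.1 ± 0.25 to 8.92 ± 0.35 FPKM in KOA (-0.51), from 15.5 ± 0.39 to 11.5 ± 1.1 in iR_KOA (-0.41), and from 19.3 ± 1.2 to 12.9 ± 1.5 in iR_WTA (-0.55). With D3 the differences were -0.27 in the knockout and -0.53 in wild type. RBM43, a low-level gene, fell from 3.45 ± 0.28 to 1.71 ± 0.10 FPKM in iR_KOA_D3 (-0.72) and by 0.24 in iR_KOA, a call lost without iR_KOA_EX replicate 3 or iR_KOA_NE replicate 2. PRPF6, which bridges the U4/U6.U5 particle, fell by 0.12 to 0.17, and its call in iR_WTA was lost under median-of-ratios scaling and under quantile normalization.

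By class, the hnRNP genes fell more often than they rose in iR_KOA (8 against 0 of 21) and iR_WTA (7 against 0). They were nearer to even in KOA (8 against 6) and iR_KOA_D3 (6 against 5), and in iR_WTA_D3 6 fell and 1 rose. In KOA 5 fell without KOA_EX replicate 1 and 5 without KOA_NE replicate 2. Of the 33 RBM genes, 13, 8, 16, 4 and 13 rose and 6, 5, 7, 8 and 6 fell in KOA, iR_KOA, iR_KOA_D3, iR_WTA and iR_WTA_D3. More of them rose than fell except in iR_WTA, to be read against 18.8, 13.1, 17.3, 11.4 and 15.3% of all genes that rose and 22.7, 22.3, 27.8, 17.2 and 26.5% that fell. Without iR_WTA_EX replicate 1 the RBM counts for iR_WTA were 2 risen and 4 fallen, and without iR_WTA_EX replicate 2 5 fell. In iR_WTA_D3 8 rose without iR_WTA_D3_NE replicate 2, and in iR_KOA 3 fell without iR_KOA_EX replicate 1 or iR_KOA_NE replicate 2. Of the 13 PRPF genes, 5, 4, 5, 3 and 5 rose and 4, 3, 4, 2 and 4 fell in the same order, and PRPF39, a U1-associated protein, rose in KOA (0.51), iR_KOA (0.27), iR_KOA_D3 (0.66) and iR_WTA_D3 (0.52). The PRPF39 call in iR_KOA was lost with no filter on low values, without any 1 of the iR_KOA_EX libraries and without iR_KOA_NE replicate 3. Without iR_KOA_D3_NE replicate 1 2 PRPF genes fell in iR_KOA_D3, and without iR_KOA_EX replicate 2 1 fell in iR_KOA.

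In iR_KOA 6 of 7 Sm genes fell with exposure (SNRPE, SNRPF, SNRPG, SNRPB, SNRPD1 and SNRPD2), by 0.13 to 0.25, and that result rests on few libraries. SNRPD2 is named only to complete this count. The exposed libraries had 132.5, 101 and 138.5 FPKM of SNRPF and 324, 253 and 317 of SNRPB, the middle value in both being replicate 2. In that library the mitochondrial share was 28.3%, against 24.6 and 24.5% in its partners and 24.3 to 24.9% in the unexposed group. Without iR_KOA_EX replicate 2, none of the 7 Sm genes passed. Without iR_KOA_NE replicate 1 or 2, 1 and 3 passed. Over all splicing factors the count for iR_KOA went from 37 to 24 without iR_KOA_EX replicate 2, and was 18 with only the compared groups in the fit, and that for iR_WTA went from 29 to 18 without iR_WTA_EX replicate 1. In the other backgrounds SNRPD3 rose in iR_KOA_D3 (0.14) and SNRPD1 fell in iR_WTA (-0.22), and no other Sm gene passed in limma. The SNRPD3 call was lost with only the compared groups in the fit and without iR_KOA_D3_EX replicate 1 or iR_KOA_D3_NE replicate 2 or 3.

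Whether an exposure response differed between backgrounds was tested directly, and RBM14 was the gene that differed in all 5 of these tests. Exposure raised it from 7.54, 7.25 and 7.53 to 13.4, 12.7 and 12.3 FPKM in KOA (0.71 ± 0.06). The unexposed and exposed libraries of iR_WTA, at 18.3, 16.65 and 17.7 against 16.5, 16.4 and 17.2 FPKM, overlapped (-0.07 ± 0.06). In the other backgrounds it rose by 0.38 in iR_KOA, 0.81 in iR_KOA_D3 and 0.37 in iR_WTA_D3. The unexposed level was highest in the background where no rise was called. The knockout response exceeded the wild-type one by 0.45 ± 0.09 without D3 (adjusted p = 0.0108, limma) and by 0.45 ± 0.09 with it (0.00411). Among the splicing factors RBM14 was the single call in both of these genotype tests, where 0.538% (0.273% higher and 0.265% lower) and 2.38% (1.24 and 1.14%) of all genes were called. The call with D3, and that of RBM14 for D3 in wild type below, were lost with only the compared groups in the fit, and that for iR_KOA minus KOA without KOA_EX replicate 1, KOA_NE replicate 2 or iR_KOA_EX replicate 3.

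Between knockout backgrounds a few more genes differed. The response in iR_KOA minus that in KOA was called for 6 genes (1 higher and 5 lower, against 1.66 and 3.42% of all genes, 5.08% in all). RBM24 led, with a rise from 1.40, 1.52 and 1.24 to 3.24, 3.21 and 2.96 FPKM in KOA (0.79) and 0.16 in iR_KOA, a difference of -0.64 ± 0.11 (adjusted p = 0.000764, limma). The response in iR_KOA_D3 minus that in iR_KOA was called for 12 genes (8 higher and 4 lower, against 1.74 and 2.4% of all genes, 4.14% in all), led by RBM43 (-0.48), RBM14 (0.44) and PRPF38B (0.40). In wild type 2 genes were called, RBM14 (0.44) and LUC7L3 (0.39), both higher, against 0.753% higher and 0.918% lower of all genes (1.67%). The LUC7L3 call was lost without any 1 of 4 libraries (iR_WTA_D3_EX replicate 3, iR_WTA_D3_NE replicate 3, iR_WTA_EX replicate 2 and iR_WTA_NE replicate 2). These tests share libraries with one another where they share a background.

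**Figure D5:**
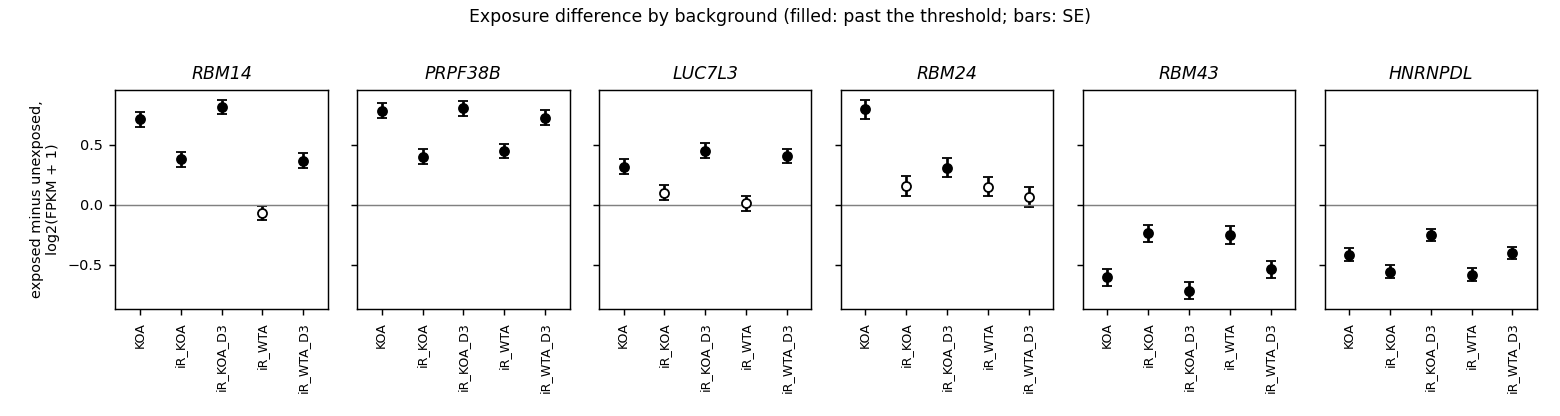
Log2 difference between exposed and unexposed libraries (point; bar, SE) of 6 splicing factors in 5 backgrounds, filled where the adjusted p is under 0.05. RBM14 lies at 0.81 in iR_KOA_D3 and -0.07 in iR_WTA, and HNRNPDL lies below 0 in all 5.

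A list of other spliceosome and splicing genes outside the rule, 81 of them tested, was compared in the same fit, with the background shares of all genes given above. With D3 49 were lower in wild type, and 58 were lower and 2 higher in the knockout, with LSM5, a subunit of the U6 ring, at -0.45 and -0.68. In the knockout 53 and 56 were lower and 9 and 8 higher (without and with D3), with PRMT5, which methylates Sm proteins, at -0.82 and -0.92. With iR 26 were higher and 5 lower. On exposure 6 rose and 9 fell in all 5 backgrounds, among them MBNL2, a developmental splicing regulator (1.03 to 1.45), and the helicase gene DDX42 (-0.57 to -0.90).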

How the data were processed

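The authors deposited FPKM values per gene for 30 libraries. Per the submitters' processing notes, fastp, HISAT2, HTSeq and GRCh38 were used; annotation, strand setting, gene lengths and filters are each not given in the sources used here. Whole reads were recovered from the FPKM steps for all 26801 genes (tolerance 0.01). A further 6 columns matched no sample and were not used.

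Genes that reached 1 FPKM in 3 or more libraries were tested as log2(FPKM + 1) with limma 3.58.1 in R 4.3.3 (moderated, two-sided, with a trend of variance on mean), all 10 groups in 1 fit and 20 residual degrees of freedom. P-values were adjusted by Benjamini-Hochberg over all tested genes in each of 15 comparisons, and "rose" and "fell" mean an adjusted p under 0.05. Differences on this scale understate changes of low genes. The fit was also run on simulated reads with a fixed spread and few changed genes. The real data differ from that setting, so no result here rests on it. Named genes passed with at least 2 FPKM in 1 group and were the largest of a comparison or class, or passed in all 5 exposure comparisons. HNRNPK, RBM4, SNRPD2 and the untested genes were named after their values were seen. The genes, lists and motifs were chosen with earlier results of these data known. Alternatives were a pseudocount of 0.1, no filter, median-of-ratios scaling, quantile normalization, only the compared groups, a replicate block, leaving out each library and, added after seeing the data, limma-voom on recovered reads.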

Additional observations from a re-analysis of the deposited data

Results flagged for a closer look

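The response to exposure differed between backgrounds, by a test of the difference itself, in 22 results of 15 splicing factors over 5 tests. Values are differences of log2 differences past the threshold in limma. RBM14 differed in all 5 tests, by 0.448 for iR_KOA minus iR_WTA, 0.447 for iR_KOA_D3 minus iR_WTA_D3, -0.332 for iR_KOA minus KOA, 0.436 for iR_KOA_D3 minus iR_KOA and 0.437 for iR_WTA_D3 minus iR_WTA.

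Between iR_KOA and KOA the response was smaller in iR_KOA for RBM24 (-0.638), RBM48 (-0.409), PRPF38B (-0.382) and HNRNPLL (-0.239), and RBM43 fell less (0.368). Compared with iR_KOA, the response in iR_KOA_D3 was more positive for PRPF38B (0.402), SNRPF (0.397), LUC7L3 (0.349) and HNRNPDL (0.305). The same held for HNRNPA2B1 (0.249), HNRNPA3 (0.236) and RBM8A (0.196). The iR_KOA_D3 response was more negative for RBM43 (-0.479), SF3A2 (-0.388), RBM10 (-0.270) and RBM5 (-0.265). In wild type the response of LUC7L3 was more positive in iR_WTA_D3 than in iR_WTA (0.395).

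Many of these calls depend on single libraries or settings. For iR_KOA minus KOA the call of HNRNPLL was lost under 12 settings (the replicate block and quantile normalization among them), RBM43 under 9, RBM48 under 6 and RBM14 under 3. For iR_KOA_D3 minus iR_KOA those of SNRPF and HNRNPA3 were lost under 10 settings each, RBM10 under 9, HNRNPA2B1 under 8, HNRNPDL under 6, LUC7L3 under 5, RBM5 under 4, SF3A2 under 3 and PRPF38B under 1. The LUC7L3 call in wild type was lost under 5, and those of RBM14 for iR_KOA_D3 minus iR_WTA_D3 and for iR_WTA_D3 minus iR_WTA under 1 each. In iR_KOA_EX replicate 2, 1 of the libraries behind the SNRPF losses, SNRPF was at 101 FPKM against 132.5 and 138.5 in its partners.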

How the results depend on the processing

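For the 292 pairs of a named gene and a comparison, 1940 of 2044 values under alternatives other than leaving out a library stayed past the threshold in the same direction, 104 no longer passed and 0 reversed. Without 1 library 1660 of 1878 stayed, 218 did not and 0 reversed. The largest shift of the median of all genes by another scaling was 0.0826. With only the compared groups fitted, the number of splicing factors called was 18 for exposure in iR_KOA, 0 for the response of iR_KOA_D3 minus iR_WTA_D3, 3 for iR_KOA minus KOA, 3 for iR_KOA_D3 minus iR_KOA and 0 for iR_WTA_D3 minus iR_WTA. For iR_KOA_D3 minus iR_WTA_D3 it was 2 with median-of-ratios scaling and 2 with quantile normalization, and the split for iR_KOA_D3 minus iR_KOA became 4 higher and 5 lower with the latter. The causes were not tested.

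Leaving out 1 library gave 39 to 43 calls for exposure in KOA, 24 to 41 in iR_KOA, 41 to 46 in iR_KOA_D3, 18 to 30 in iR_WTA and 31 to 43 in iR_WTA_D3, 57 to 61 and 64 to 68 for genotype without and with D3, 52 to 55 and 59 to 68 for D3 in wild type and knockout, and 31 to 41 for iR. For differences in response it gave 1 to 1 (iR_KOA minus iR_WTA), 1 to 3 (iR_KOA_D3 minus iR_WTA_D3), 3 to 8 (iR_KOA minus KOA), 4 to 17 (iR_KOA_D3 minus iR_KOA) and 1 to 6 (iR_WTA_D3 minus iR_WTA). The libraries behind changes of over 1.5 times were KOA_EX replicates 1 and 2 and iR_KOA_NE replicate 1 for iR_KOA minus KOA (3 each). For iR_KOA_D3 minus iR_KOA they were iR_KOA_D3_EX replicates 1 and 3 (7 and 6), iR_KOA_D3_NE replicate 2 (5) and iR_KOA_NE replicates 1 and 2 (5 and 4). For iR_KOA_D3 minus iR_WTA_D3 they were iR_KOA_D3_NE replicate 2 (2) and iR_WTA_D3_EX replicates 1 and 3 (3 and 2), and for iR_WTA_D3 minus iR_WTA iR_WTA_D3_EX replicate 2 (6) and, with 1 call each, iR_WTA_D3_EX replicate 3, iR_WTA_D3_NE replicate 3, iR_WTA_EX replicate 2 and iR_WTA_NE replicate 2.

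Replicate numbers showed no consistent pairing of the samples. Deviations of same-numbered libraries correlated at -0.45 to 0.344 (median 0.0153), and 38 of 135 such pairs were above 0.1. Of 30 libraries, 16 correlated best with their own number, so pairing in some groups is not excluded. With the replicate block 289 of the 292 calls stayed. A planned count test was not run, because the table holds FPKM and not counts. In its place limma-voom was run on the recovered reads. U2AF1 rested on 7 to 806 reads per library.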
